A study of Rattus norvegicus with 15 samples.

Results

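Genes of sympathetic nerve, chromaffin tissue and neurons, namely Th, Dbh, Prph, Stmn2, Npy, Gal, Gap43, Rtn1, Tubb2b and Nptx2, were read in the ductus arteriosus and aorta of rats around birth. They were taken as every probe set, that is, every group of short oligonucleotides for 1 transcript, whose platform annotation gave a single symbol equal to one of the 10 names. This gave 15 probe sets for 10 genes, out of 26202 probe sets and 10969 genes. The names were chosen by their signals in earlier readings of these same arrays, so the values below are a description with no test.

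RNA of 5 states was hybridised to 3 Affymetrix chip types (A, B and C), which carry different genes, with 1 array for each state and chip type and 15 arrays in all. The states were newborn ductus (3 h after vaginal delivery), oxygen ductus (gestation day 19, from dams that had breathed 100% oxygen for 3 h), fetal ductus (day 19, normoxic dam), newborn aorta (3 h after vaginal delivery) and fetal aorta (day 19, normoxic dam). Fetuses were delivered by Cesarean section, the aorta comprised arch and thoracic sections, and vessels were dissected in medium gassed with 2.5% (fetal) or 12.5% (newborn) oxygen. The newborn aorta array of chip A carries a title that counts its 3 h from coitum, against a description that says newborn, and it was read as newborn.

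The labels name no strain and do not give the number of animals behind an array, so the spread between animals is unknown and no p-value can be given. Nothing here separates fewer cells of a type from less RNA per cell, since each array measured a whole vessel. The labels say that care was taken to free the vessels of adhering tissue. Vascular smooth muscle genes, the marker list of the labelled tissue, were bright in every state, with summed signals of 101714 in newborn ductus, 69655 in oxygen ductus, 66250 in fetal ductus, 60505 in newborn aorta and 43846 in fetal aorta. Their expression was lowest in the fetal aorta, where most of the 10 genes were highest.

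Sympathetic neurons and the chromaffin cells of paraganglia and adrenal medulla arise from the neural crest and make noradrenaline from tyrosine. Tyrosine hydroxylase (Th) performs the first, rate-limiting step and dopamine beta-hydroxylase (Dbh) makes noradrenaline inside the vesicles, while peripherin, stathmin 2 and GAP-43 belong to the cytoskeleton and growing tips of peripheral axons. The aorta of late fetuses is accompanied by sympathetic fibres and by paraganglia, and both great vessels receive autonomic nerves.

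Promoter sequence is shown for Th and Dbh because these enzymes define the catecholamine phenotype and their signals stood highest in the same state. RefSeq's promoter table (build GRCr8) held 8 of the 10 genes, Stmn2 and Gap43 being the exceptions. Each line runs 5′ to 3′ on the gene's strand and holds the 250 bases before the annotated start. Th lies on the minus strand at chr1:207508219-207508468, and Dbh on the plus strand at chr3:30886078-30886327. Capitals mark TGACGTCA, the cAMP response element, in Th, the related letters TGCGTCA in Dbh, and CAATTA, a core bound by homeodomain factors, in both.
Th: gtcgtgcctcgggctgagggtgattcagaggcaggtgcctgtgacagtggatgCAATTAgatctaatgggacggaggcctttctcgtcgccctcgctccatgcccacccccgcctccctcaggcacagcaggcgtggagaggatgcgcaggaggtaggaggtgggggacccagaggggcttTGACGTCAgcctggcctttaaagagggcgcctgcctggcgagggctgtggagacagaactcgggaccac
Dbh: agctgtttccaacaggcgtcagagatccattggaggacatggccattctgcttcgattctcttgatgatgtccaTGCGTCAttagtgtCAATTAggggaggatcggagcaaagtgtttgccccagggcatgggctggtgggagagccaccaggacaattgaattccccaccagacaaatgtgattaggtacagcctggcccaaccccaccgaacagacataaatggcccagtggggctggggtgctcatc

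Both strands of the window from 250 bases before to 50 after the start were searched in 33469 rat promoters. TGACGTCA was found in 1.83% of them and in 1 of the 8 members, Th, 69 bases before the start. TGCGTCA was found in 1.9% and in 1 of 8, Dbh, 176 bases before the start. CAATTA was found in 8.2% and in 2 of 8, 197 bases before the start in Th and 162 in Dbh. The shorter core TGACG, which every TGACGTCA contains on both strands and which overlaps the TGCGTCA of Dbh on the other strand, was found in 21.2% of promoters and in 6 of the 8 (Th, Dbh, Gal, Rtn1, Nptx2 and Tubb2b). A match of letters is a description and shows no binding.

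Signals are linear intensities as deposited, and the mean of every array, trimmed by 2% at each end, was the same within rounding, at 499.9 for the lowest. Those under the pooled median of a chip type (149.8, 241.7 and 243.0 on A, B and C) were treated as at a floor, and 46.9 to 51.8% of each array was above it. A fold with one array at the floor is written "at least". Where a gene had several probe sets, the brightest stands for it. In place of replicate error, the local SD gives the spread of log2 ratios among probe sets of like signal on the same pair of arrays, which also contains real differences. Only probe sets above the floor on both arrays enter it. Large ratios are thereby left out near the floor, so the local SD can be too small there, as for Dbh.

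Of the 10 genes, 7 (Th, Dbh, Prph, Stmn2, Gap43, Rtn1 and Tubb2b) had their highest signal in the fetal aorta, and 6 of them, all but Tubb2b, stood there at least 1.5-fold above the next state. Among the 8027 genes above the floor in any state, 20.6% were highest in the fetal aorta and 1.1% by that margin, while 17.3% were highest in newborn ductus, 28.7% in oxygen ductus, 14.2% in fetal ductus and 19.2% in newborn aorta. The members were chosen with these signals known, so nothing is read from their counts beside these shares. The margin over the next state exceeded 2 local SD in all 7, while neighbours in the order of the 4 states below were not told apart by that yardstick. For Dbh the 4 other states were all under the floor, so the floor fixed its highest state and which of them comes next is not resolved. Its margin was 2.2 local SD against fetal ductus and 1.9 against newborn aorta. Gal and Nptx2 were highest in the newborn ductus, and Npy in the newborn aorta.

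**Figure D1:**
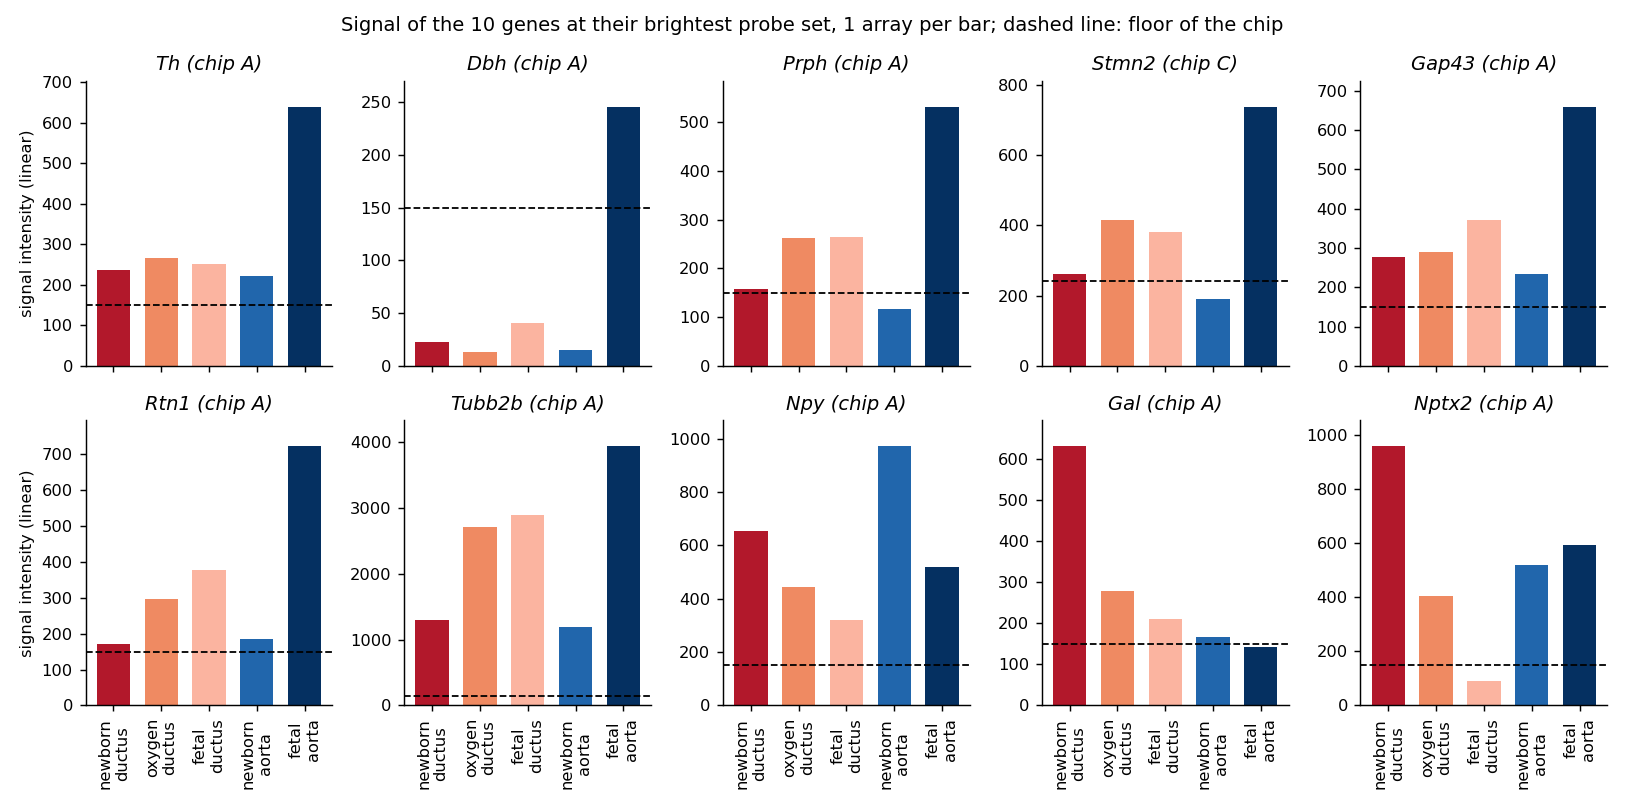
Signal intensity (linear axis from 0) of the 10 genes at the brightest probe set, 1 bar for each array, with the states in the order newborn ductus, oxygen ductus, fetal ductus, newborn aorta and fetal aorta, and the floor of the chip as a dashed line. The fetal aorta is highest for 7 genes, such as Th at 638.4 against 221.0 to 265.6 in the other states, and the newborn ductus is highest for Gal (629.7) and Nptx2 (958.4).

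Of the catecholamine enzymes, Th (chip A) had signals of 236.5 in newborn ductus, 265.6 in oxygen ductus, 252.5 in fetal ductus, 221.0 in newborn aorta and 638.4 in fetal aorta. The 4 lower arrays lay close together and the fetal aorta stood alone. Th was thus 2.53-fold lower in fetal ductus than in fetal aorta (log2 ratio -1.34, local SD 0.31) and 2.89-fold lower in newborn aorta than in fetal aorta (-1.53, local SD 0.42). After birth the ductus and aorta differed by 0.10 log2 units (local SD 0.36).

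Dbh (chip A) had signals of 22.6 in newborn ductus, 13.6 in oxygen ductus, 40.8 in fetal ductus, 14.9 in newborn aorta and 245.3 in fetal aorta. The fetal aorta was the only array of Dbh above the floor. Dbh was therefore at least 1.64-fold lower both in fetal ductus and in newborn aorta than in fetal aorta, and was not measured in comparisons without the fetal aorta.

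Other genes of catecholamine handling showed smaller differences. Of 11 such genes on the chips besides Th and Dbh, 9 were measured in fetal ductus against fetal aorta, and none was 2-fold apart (median log2 ratio -0.27). Ddc, the decarboxylase between Th and Dbh, was above the floor in the fetal aorta alone, at 311.6. Its fetal ductus signal of 241.0 lay just under the floor of 241.7, so the difference was at least 1.29-fold. Slc18a2, the vesicular monoamine transporter of neurons, was also above the floor in the fetal aorta alone, at 152.9 against a floor of 149.8. Slc6a2, the noradrenaline reuptake transporter, had signals of 293.2, 204.8, 209.8, 189.8 and 281.0 in newborn ductus, oxygen ductus, fetal ductus, newborn aorta and fetal aorta. Pnmt, the enzyme of adrenaline synthesis in chromaffin cells, had 261.7, 149.9, 225.1, 180.7 and 177.9 in the same order, so that the fetal aorta was not its highest state. Gch1, which makes the cofactor of Th, was at least 2.04-fold higher in newborn aorta (305.7) than in fetal aorta (132.7, under the floor).

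The axonal and cytoskeletal genes likewise had their highest signal in the fetal aorta. Prph, the type III intermediate filament of peripheral neurons, had 158.3 in newborn ductus, 261.8 in oxygen ductus, 264.2 in fetal ductus, 116.2 in newborn aorta and 530.9 in fetal aorta on chip A. It was 2.01-fold lower in fetal ductus than in fetal aorta (-1.01, local SD 0.32), a value just past 2-fold that came to -0.98 after quantile normalization, and at least 3.54-fold lower in newborn aorta than in fetal aorta. Its probe set on chip C, a separate hybridisation, had 126.8, 224.2, 261.0, 88.7 and 486.7 in the same order, with a log2 ratio of -0.90 for fetal ductus over fetal aorta.

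Stmn2, a microtubule-destabilising protein of growing neurites, was read on chip C at 262.8 in newborn ductus, 416.9 in oxygen ductus, 381.0 in fetal ductus, 191.2 in newborn aorta and 737.2 in fetal aorta. It was 1.93-fold lower in fetal ductus (-0.95, local SD 0.32) and at least 3.03-fold lower in newborn aorta than in fetal aorta. Gap43, a membrane protein of growth cones, had 276.0, 290.8, 371.1, 234.9 and 658.3 in the same order. The fetal aorta was again apart, with Gap43 1.77-fold lower in fetal ductus (-0.83, local SD 0.29) and 2.80-fold lower in newborn aorta (-1.49).

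Rtn1, a reticulon of the endoplasmic reticulum in neuroendocrine cells, had 172.4 in newborn ductus, 296.7 in oxygen ductus, 376.7 in fetal ductus, 185.5 in newborn aorta and 722.5 in fetal aorta. It was lower in the newborn in both vessels, by 3.89-fold in aorta (-1.96, local SD 0.42) and by 2.19-fold in ductus (-1.13, local SD 0.44). Its second probe set on chip A was above the floor in the fetal aorta alone, at 335.4. Tubb2b, a beta-tubulin, had 1299.1, 2707.3, 2887.0, 1191.7 and 3937.5 in the order of states above. Like Prph, Stmn2, Gap43 and Rtn1, it had all 3 fetal arrays above both newborn arrays. Tubb2b was 3.30-fold lower in newborn aorta than in fetal aorta (-1.72, local SD 0.41) and 2.22-fold lower in newborn ductus than in fetal ductus (-1.15, local SD 0.39).

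Tubb2b reads are uncertain, because beta-tubulin transcripts are nearly identical over long stretches and its probes may bind others of the family. Its brightest probe set is of a kind whose probes are shared by several sequences (suffix s), and a second on chip A was under the floor in all 5 states. The remaining probe set, on chip B, had 150.4 in newborn ductus, 278.1 in oxygen ductus, 354.2 in fetal ductus, 57.9 in newborn aorta and 424.3 in fetal aorta. The 3 fetal arrays ranked as on chip A, and both newborn signals were under the floor of 241.7, so their order is not measured. Tubb2a, its closest relative in the lists, differed by at most 1.39-fold in any comparison (chip C, 4328.1 to 6190.3).

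**Figure D2:**
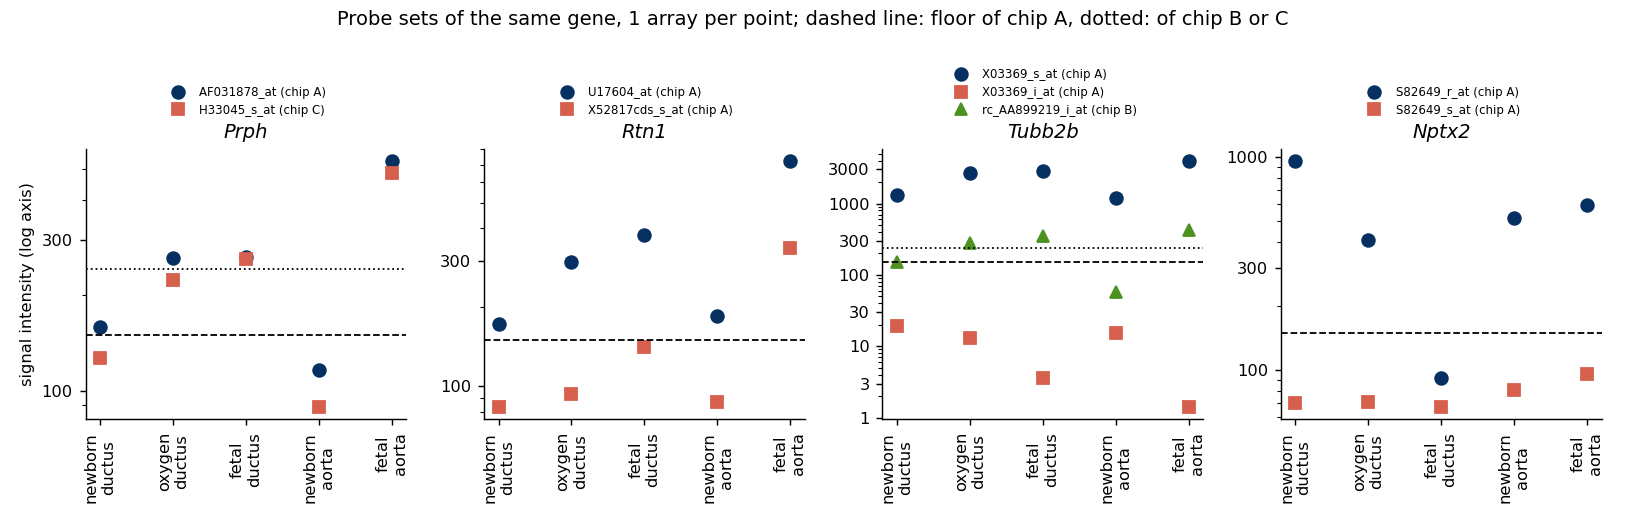
Signal intensity (log axis) by state for the 4 genes with more than 1 probe set, 1 point for each array, with the floors of the chips as dashed and dotted lines. Prph and Tubb2b show their highest signal in the fetal aorta on 2 chip types each, whereas the second probe set of Nptx2 stays between 66.9 and 95.9, under the floor in every state.

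Npy and Gal, neuropeptides released by sympathetic and other autonomic neurons, did not share the pattern of Th. Npy, a vasoconstrictor stored with noradrenaline, had 652.3 in newborn ductus, 443.5 in oxygen ductus, 318.4 in fetal ductus, 970.7 in newborn aorta and 517.7 in fetal aorta. It was higher in the newborn than in the fetus in both vessels, by 2.05-fold in ductus (1.03, local SD 0.43) and by 1.88-fold in aorta (0.91, local SD 0.41). It was lower in ductus than in aorta at both ages, by 1.49-fold in newborns (-0.57) and 1.63-fold in fetuses (-0.70, local SD 0.32 each). Neighbouring states in the order of Npy signals all lay within 2 local SD of each other. The summed signal of 7 fat-cell genes was likewise highest in newborn aorta, at 4008 in newborn ductus, 2400 in oxygen ductus, 2804 in fetal ductus, 10678 in newborn aorta and 3340 in fetal aorta. Fabp4, a fatty acid carrier of fat cells, was 3489.0 in newborn aorta and under the floor, at 123.4, in fetal aorta, and the part of such tissue in the Npy values was not tested.

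Gal, the precursor of galanin, had 629.7 in newborn ductus, 277.7 in oxygen ductus, 209.6 in fetal ductus, 167.2 in newborn aorta and 141.5 in fetal aorta. The 3 ductus arrays were all above both aorta arrays, and the newborn ductus was highest, 2.27-fold above the oxygen ductus (1.18, local SD 0.63, within 2 local SD). Gal was 3.77-fold higher in newborn ductus than in newborn aorta (1.91, local SD 0.37), at least 1.40-fold higher in fetal ductus than in fetal aorta, and 3.00-fold higher in newborn ductus than in fetal ductus (1.59, local SD 0.44). With maternal oxygen the difference from fetal ductus was 1.32-fold (0.41, local SD 0.37), about 1 local SD. Smooth muscle genes were also brightest in the newborn ductus (summed signals above), and their part in the Gal values was not tested.

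Nptx2, a secreted pentraxin that clusters glutamate receptors at synapses of the brain, rested on 1 probe set. That set, on chip A, had 958.4 in newborn ductus, 406.5 in oxygen ductus, 91.7 in fetal ductus, 518.3 in newborn aorta and 593.3 in fetal aorta, so the fetal ductus alone was under the floor. Nptx2 was at least 6.40-fold higher in newborn ductus and at least 2.71-fold higher in oxygen ductus than in fetal ductus, and at least 3.96-fold lower in fetal ductus than in fetal aorta. The probe set has the suffix r, which marks one chosen with relaxed design rules, and the gene's other set on the same chip (66.9 to 95.9) was under the floor everywhere. With the mean of both sets the log2 ratio of fetal ductus over fetal aorta was -0.99 instead of -1.99. The genes of chip A nearest to Nptx2 in pattern, below, included blood-cell genes, and red-cell RNA in its values was not tested.

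Between the vessels, more members were 2-fold apart in the fetus than in the newborn. Of 10 members measured in fetal ductus against fetal aorta, 3 (Th, Prph and Nptx2) were at least 2-fold lower and none 2-fold higher, against 0.959% of 7610 genes in either direction. The median log2 ratio was -0.88, where that of all genes was -0.02. Between newborn ductus and newborn aorta, 1 of 9 members was at least 2-fold higher (Gal; 1.25% of 7528 genes) and none lower (1.18%), and the median was 0.11 against -0.01. In that pair Th, Prph, Stmn2, Gap43, Rtn1 and Tubb2b differed by log2 ratios of -0.11 to 0.23, each within 1 local SD, with Prph and Stmn2 as bounds since their newborn aorta signals were under the floor. The members had been chosen with these contrasts known, so nothing is read from the counts.

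Birth in the aorta gave the most values past 2-fold. Route of delivery and oxygen in the medium differed with age too and cannot be told apart from it. In newborn against fetal aorta 6 of 10 members were at least 2-fold lower (Th, Prph, Stmn2, Gap43, Rtn1 and Tubb2b; 2.71% of 7676 genes), none was 2-fold higher (2.12%), and the median was -1.51 against -0.05 for all genes. In newborn against fetal ductus 2 of 9 were at least 2-fold lower (Rtn1 and Tubb2b; 1.79% of 7551 genes) and 3 were at least 2-fold higher (Npy, Gal and Nptx2; 1.72%), with a median of -0.43 against -0.05. Th differed by 0.09 log2 units there (lower in newborn ductus, local SD 0.44). The 2 birth comparisons share no array, but each shares arrays with the vessel comparisons.

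Oxygen breathed by the dam came with few differences. In oxygen against fetal ductus, 1 of 9 members was at least 2-fold higher (Nptx2; 0.469% of 7457 genes) and none was 2-fold lower (0.858%), with a median of 0.07 against 0.04 for all genes. The 2-fold difference of Nptx2 was lost with the mean of both its probe sets (log2 ratio 0.72) and with a floor at the 65th percentile (0.45). Th, Prph, Stmn2, Gap43, Rtn1 and Tubb2b had log2 ratios of -0.35 to 0.13. In newborn against oxygen ductus, 2 of 9 were at least 2-fold higher (Gal at 2.27-fold and Nptx2 at 2.36-fold; 2.59% of 7534 genes) and 1 lower (Tubb2b at 2.08-fold; 3.24%), with a median of -0.17 against -0.09.

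**Figure D3:**
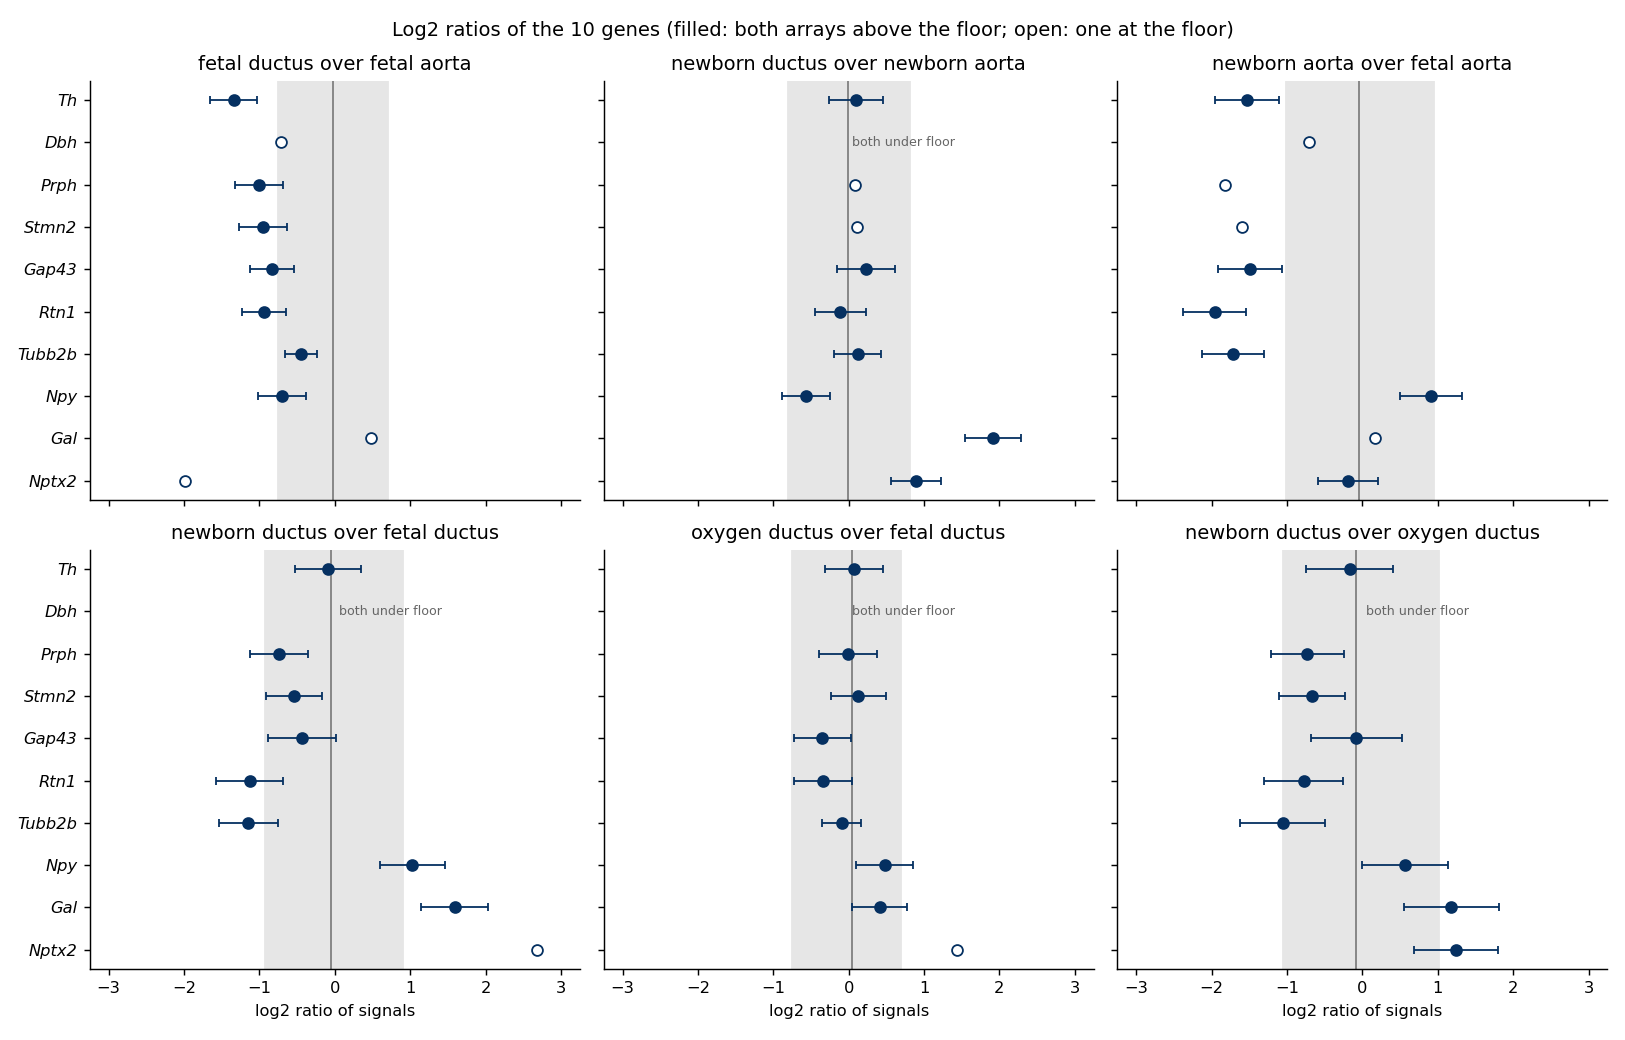
Log2 ratios of the 10 genes in the 6 comparisons, with 1 local SD as error bars where both arrays were above the floor, open symbols for lower bounds, and the central 95% of all genes in grey. In the fetal vessels Th (-1.34) and Prph (-1.01) lie left of the grey band, and in the newborn vessels Gal (1.91) and Nptx2 (0.89) lie right of it.

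Lists of 8 kinds of nerve, chromaffin and glial genes held 100 further genes on the chips, of which 64 were above the floor in any state. Of these 64, 28 (43.8%) had their highest signal in the fetal aorta and 6 (9.4%), Nefl, Nefm, Ina, Mapt, Crmp1 and Nsg1, by at least 1.5-fold, beside 20.6% and 1.1% of all genes. Ddc, Slc18a2, Snap25, Nefm, Tubb3 and Phox2a passed the floor in the fetal aorta alone, so that filter fixed their highest state. Others led narrowly, such as Qdpr at 1034.7 against 1033.5 in newborn aorta. The lists were chosen with earlier results of these data known, so nothing is read from these counts. Nefl and Nefm encode neurofilaments and Ina alpha-internexin, Mapt encodes tau, Crmp1 a mediator of axon guidance and Nsg1 an endosomal protein of neurons. Nefl had 95.1 in newborn ductus, 140.2 in oxygen ductus, 246.6 in fetal ductus, 112.2 in newborn aorta and 420.9 in fetal aorta. Mapt had 375.4, 368.2, 367.8, 325.5 and 806.5 in the same order, with the 4 lower states nearly level as for Th.

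In fetal ductus against fetal aorta, 2 of 62 measured genes of these lists were at least 2-fold lower and none higher (0.959% of all genes each way), with a median of -0.14. They were Ina, at least 2.5-fold lower, and Mapt, 2.19-fold lower. The 2 other probe sets of Mapt did not reach 2-fold there, at 1.52-fold and at least 1.53-fold lower. In newborn against fetal aorta, 5 of 62 were at least 2-fold lower, Nefl, Ina, Mapt, Crmp1 and L1cam (an adhesion molecule of axons and Schwann cells), and 1 higher, Gch1, with a median of -0.17, beside 2.71% of all genes lower and 2.12% higher. Crmp1 was 172.6 in newborn aorta against 496.0 in fetal aorta, a 2.87-fold difference (log2 ratio -1.52).

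In newborn ductus against newborn aorta, 3 of 51 were at least 2-fold higher and 1 lower (1.25% and 1.18% of all genes), with a median of 0.18. The higher ones were Cpe, a prohormone-processing carboxypeptidase (3218.9 against 1274.2), Penk, the enkephalin precursor (2517.5 against 889.9), and Map1b, a microtubule protein (8696.1 against 4323.8), and the lower one was Map2, a dendritic microtubule protein (295.4 against 914.0). A second probe set of Penk, on chip B, had 212.4 in newborn ductus, under the floor, and 282.0 in newborn aorta. It was above the floor in newborn aorta alone and gave only a bound, at least 1.17-fold lower in newborn ductus. The 2 sets of Penk thus differ in direction, but the second lay too near the floor to contradict the first. In newborn against fetal ductus, 2 of 56 were at least 2-fold higher and none lower (1.72% and 1.79% of all genes), Gata2 and Cyb561, an electron carrier of the granule membrane (1081.8 against 499.5, 2.17-fold). In newborn against oxygen ductus, 2 of 53 were at least 2-fold higher (2.59% of all genes), Ngfr and the stathmin Stmn3 (498.8 against 220.6, at least 2.06-fold), and 1 was lower (3.24%), Map2 at 2.44-fold. None of 54 was 2-fold apart in oxygen against fetal ductus (0.469% of all genes higher and 0.858% lower).

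**Figure D4:**
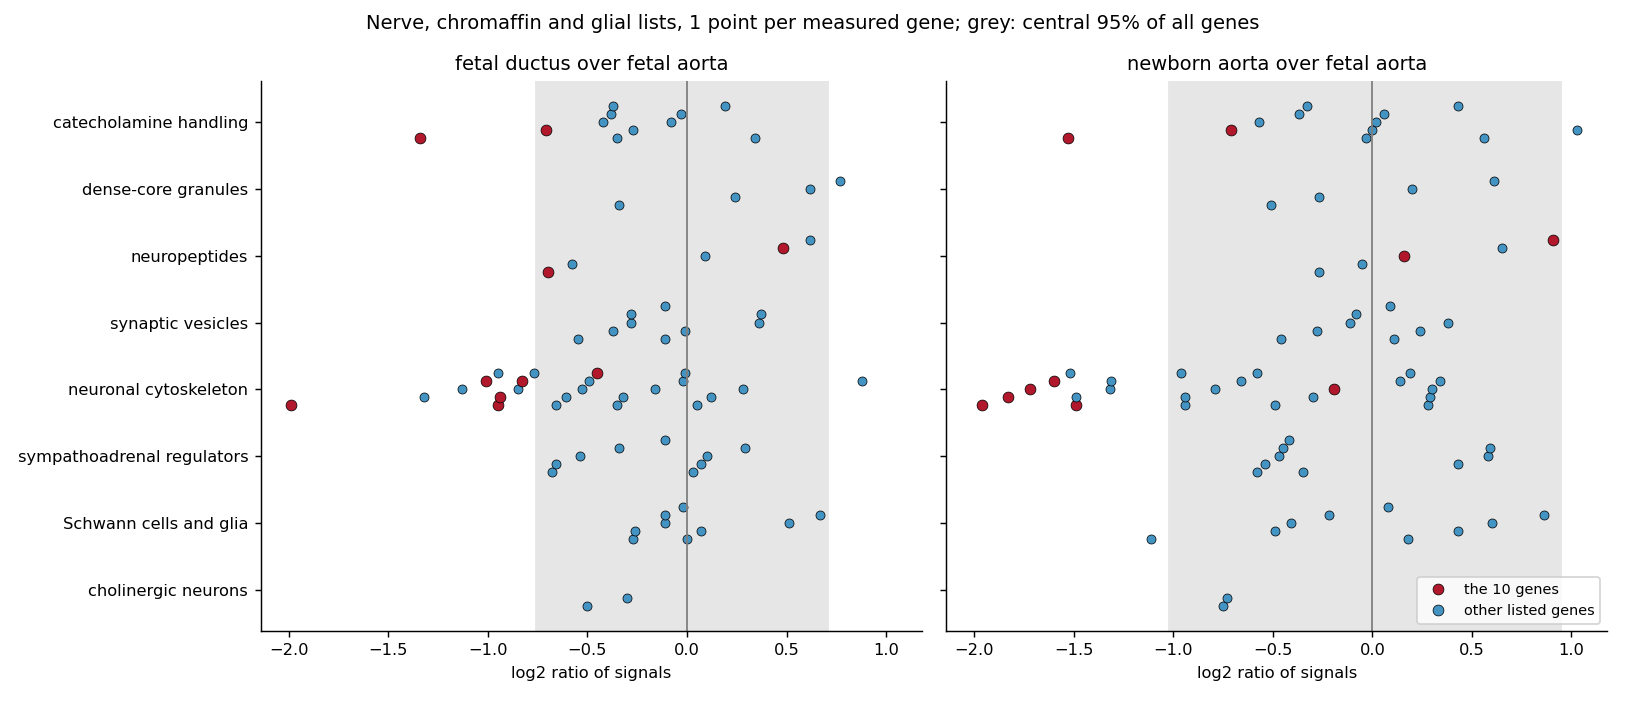
Log2 ratios of the measured genes of 8 nerve, chromaffin and glial lists, 1 point for each gene, for fetal ductus over fetal aorta and newborn aorta over fetal aorta, with the central 95% of all genes in grey. The neuronal cytoskeleton row also holds growth cone and other neuron-enriched proteins. It reaches furthest left, through the members Nptx2 (-1.99, a bound) in the first panel and Rtn1 (-1.96) in the second, which are not cytoskeletal proteins. Its genes other than members include Ina (-1.32) and Mapt (-1.13) in the first panel. The Schwann cell row is centred near 0 (median -0.02 in the first panel).

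Within the cytoskeletal list, 18 genes other than members were measured in fetal ductus against fetal aorta, 14 below 0 and 4 above, with a median of -0.42. Synaptic vesicle genes numbered 9, with 7 below 0 and a median of -0.11. Snap25, a fusion protein of nerve terminals, was above the floor in the fetal aorta alone, at 293.7. Sv2a was above it in the fetal ductus alone, at 312.5, and Vamp1 was higher in fetal ductus (703.3) than in fetal aorta (543.8). Syp, Syn2, Syt1 and Rab3a of the same list were under the floor in every state. Of 16 sympathoadrenal regulators on the chips, 9 were above the floor in any state. Phox2a, a homeodomain factor that drives noradrenergic differentiation, was above it in the fetal aorta alone (217.7, against 14.0 to 50.5 in the other states), whereas Hand2, Gata3, Isl1 and Chrna3 were under it everywhere. Gata2 was 2.05-fold higher in newborn ductus than in fetal ductus. The nerve growth factor receptor Ngfr was 2.69-fold higher in newborn ductus (2334.6) than in oxygen ductus (868.5).

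Granule and glial genes were a mix of bright and undetected ones. Of 10 granule and prohormone genes on the chips 4 were above the floor in any state, with Cpe, Penk and the peptide-amidating enzyme Pam (7299.1 to 11152.0) bright in all 5. Chgb, Scg2 and Scg3, cargo of dense-core vesicles, were under it in every state, as were Scg5 and Pcsk2, so no difference between states was measured for them. Of 14 glial genes 9 were above the floor in any state. The peripheral myelin gene Pmp22 (3384.6 to 4097.9), the adhesion molecule Ncam1 (556.0 to 1145.9) and the myelin genes Mag (258.1 to 615.1) and Prx (216.1 to 281.1) were above it in all 5 states, and Sox10 and S100b, defining markers of Schwann cells, in none. The summed signal of the 14 was 6801, 6332, 6506, 6485 and 6748 in newborn ductus, oxygen ductus, fetal ductus, newborn aorta and fetal aorta. Chat, which marks cholinergic neurons, was under the floor in all 5. No listed gene was at 0 on these arrays.

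Marker lists of other cell types also differed between the states, each in its own way. The summed signal of 7 erythroid genes was 13449 in newborn ductus, 14956 in oxygen ductus, 13405 in fetal ductus, 13780 in newborn aorta and 31991 in fetal aorta. The embryonic globin Hbe1 made up 17354.7 of the fetal aorta sum, whereas Alas2 was highest in newborn aorta, at 8588.3. Of 6 erythroid genes measured in fetal ductus against fetal aorta 4 were at least 2-fold lower, with Ahsp, the alpha-globin chaperone, at -1.97 and the embryonic globin Hbz at -1.46 on the log2 scale. The 7 leukocyte genes summed to 3536, 2627, 2744, 4234 and 4492 in the same order, with the mast cell protease Cma1 (-1.78) and the complement gene C1qb (-1.42) lowest in fetal ductus over fetal aorta. The 9 heart muscle genes were highest in fetal ductus, with 7708, 19431, 24020, 13264 and 9608. Their part in the values of the 10 genes was not tested.

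Of 6 adrenal cortex genes on the chips, the steroid enzymes Star, Cyp11a1, Cyp11b2 and Cyp21a1 were under the floor in every state, with Star at 23.8 and Cyp11a1 at 31.8 in the fetal aorta. Nr5a1, the nuclear receptor that directs steroidogenic genes, was above the floor in all 5 states on chip B, at 1269.6 in newborn ductus, 616.8 in oxygen ductus, 512.1 in fetal ductus, 1097.4 in newborn aorta and 909.7 in fetal aorta. The list summed to 2094, 1408, 1635, 1447 and 2087 in newborn ductus, oxygen ductus, fetal ductus, newborn aorta and fetal aorta. Scarb1, a lipoprotein receptor found in many tissues, was 168.5 in newborn aorta and 992.1 in fetal aorta (log2 ratio -2.56).

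Likeness of pattern was taken as the root-mean-square difference between log2 signals of the 5 states, each centred on its gene's mean. It was ranked over 433 genes of chip A that varied by at least 2-fold and were above the floor in most states. Dbh, Nefl, Nefm, Ina and Phox2a were above it in too few states and were not ranked. The 5 genes nearest to Th were Mapt (0.11), Mapkapk3 (0.15), Meox2 (0.15), Gap43 (0.18) and Nrp1 (0.21), and those nearest to Prph were Rtn1 (0.15), Meox2 (0.19), Tubb2b (0.22), Bin1 (0.23) and Gap43 (0.23). Nearest to Gal stood Hspb1 (0.33), Actg2 (0.33), Ghr (0.34), Cpe (0.34) and Kcnj8 (0.35). Nearest to Nptx2, and less close, were Alas2, Kcnd3, Hba-a3, Selenop and Ctrc (0.50 to 0.51). Alas2, the first enzyme of haem synthesis in red-cell precursors, had 8346.0 in newborn ductus, 2844.3 in oxygen ductus, 2369.0 in fetal ductus, 8588.3 in newborn aorta and 5463.1 in fetal aorta. All genes of a chip share the same 5 arrays, so these rankings are descriptions.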

How the data were processed

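The deposited files hold 1 linear signal intensity for each probe set, and per the submitters' processing notes MAS5 made those of 4 of the 5 chip A arrays (not fetal aorta). The software of the other arrays is not given in the sources used here. Control probe sets were left out, and 18178 of the 26202 remaining probe sets had 1 gene, 391 several and 7633 none in the platform annotation. All 15 member probe sets were found in the current gene table. Signals were taken as deposited, set to at least the pooled median of the chip type (percentile 50) and turned into log2 ratios between 2 arrays (Python 3.11.15, numpy 2.4.6, pandas 2.3.3).

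Groups came from sample titles and descriptions. Each had 1 array for each chip type, so no test was made, and counts at 2-fold are set beside the same share of all genes. The local SD used probe sets within 0.5 log2 units of mean signal, and the ratio step was checked on simulated data. Members and gene lists were chosen with earlier results of these data known. The text names all members, listed nerve genes at least 2-fold apart, some markers of other cell types, and a few listed genes chosen after their values were seen. The rule also covered the 2 most different markers of every other cell type, and not all of these are printed. It covered the 3 brightest genes of each nerve list too, most of which are not printed. Array number and signal over background limit the precision.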

Additional observations from a re-analysis of the deposited data

Results flagged for a closer look

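On the Nptx2 probe set, birth came with a higher signal in the ductus and with no difference past the local SD in the aorta. Newborn over fetal ductus gave a log2 ratio of at least 2.68, since the fetal ductus (91.7) was under the floor, whereas newborn over fetal aorta gave -0.19, which is within its local SD of 0.40. With 1 array in each state the difference was not tested. The gene's other probe set was under the floor in all 5 states.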

How the results depend on the processing

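Every value rests on 1 array a state, and 6 other settings were tried (floor at the 25th or 65th percentile, no floor with a pseudocount of 50, mean of all probe sets of a gene, quantile normalization, scaling to a common median). Of 36 medians over the members, 32 stayed within 1 robust SD of all genes and 4 moved, all with the floor at the 65th percentile, which left fewer members measured: newborn ductus over newborn aorta 0.51 (4 members), newborn aorta over fetal aorta -0.97 (8 members), newborn over fetal ductus 0.36 (6 members) and newborn over oxygen ductus 0.82 (4 members). Members at least 2-fold lower numbered 1 to 4 in fetal ductus over fetal aorta (3 as reported), 4 to 7 in newborn over fetal aorta (6 as reported) and 0 to 2 in newborn over fetal ductus (2 as reported). Those at least 2-fold higher numbered 0 to 1 in oxygen over fetal ductus (1 as reported), 1 to 2 in newborn over oxygen ductus (2 as reported) and 2 to 3 in newborn over fetal ductus (3 as reported). Of 315 values of single genes, 286 kept within 1 local SD and 29 moved. The sign changed for Prph in oxygen over fetal ductus alone, at -0.01 as reported, 0.15 with quantile normalization and 0.05 at a common median. No paired analysis was possible because each state had 1 array for each chip type. Signals near the floor, such as those of Dbh, Ddc and Phox2a, bound a fold rather than measure it: without a floor and with a pseudocount of 50, Dbh in fetal ductus over fetal aorta was -1.70 on the log2 scale instead of -0.71.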

Other observations

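Genes by which target tissue attracts or guides nerves were mostly under the floor, with 4 of 9 on the chips above it in any state. Nrp1, a semaphorin and VEGF receptor, had 1216.2 in newborn ductus, 1496.0 in oxygen ductus, 1574.9 in fetal ductus, 1264.9 in newborn aorta and 2623.9 in fetal aorta, and its probe set on chip B had 218.3, 251.1, 296.3, 243.8 and 542.8 in the same order. Both sets put the fetal aorta highest, as for Th. Bdnf, a neurotrophin, stood apart in the oxygen ductus, at 189.3, 437.5, 194.7, 217.2 and 218.4 in that order, whereas the neurotrophin Ntf3 had 486.3, 814.1, 701.5, 463.0 and 517.9.

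Uchl1, a ubiquitin hydrolase of neurons and neuroendocrine cells, shows how the choice of probe set decides a reading, and it was chosen after its values were seen. The brightest of its 5 probe sets, on chip C, was 1.23-fold higher in newborn aorta (3057.3) than in fetal aorta (2479.3). The other 4, on chips A and B, were 2.14 to 2.62-fold lower in newborn aorta, for example 564.6 against 1480.2. The brightest set has the suffix f, which marks probes shared within a sequence family, and the cause of the disagreement was not tested.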
